A study of Homo sapiens with 15 samples.

Results

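The zinc finger genes ZNF1 to ZNF499 were examined in the Caco-2 line. This line derives from a human colon carcinoma and differentiates after confluence into cells resembling enterocytes of the small intestine. The members were all genes whose platform symbol was ZNF followed by a number under 500 and at most 1 further letter. Antisense and pseudogene entries were left out. Members were taken by symbol alone, so not all of them need be transcription factors. There were 241 such genes among the 14884 gene symbols named on the arrays, and each was represented by its brightest probe set. A gene was tested if its value lay above the 40th percentile of all probe sets of an array on at least 5 of the 15 arrays, which 207 of the 241 members did. The 241 members matched RefSeq by Entrez ID, and 108 of them lay on chromosome 19. In the first group, labelled LPS+RSV, cells received 50 µM trans-resveratrol, a plant polyphenol supplied in ethanol, for 1 h and were then stimulated with lipopolysaccharide from E. coli K12, a ligand of TLR4, at 1 µg/mL for 48 h. The LPS group received the same lipopolysaccharide exposure without resveratrol, and the control cells were untreated. The labels do not say whether the LPS or control cultures received ethanol. Each group had 5 arrays from cultures of 1 cell line, run 15 to 19 days after seeding, and nothing in the labels says that the arrays came from separate cultures, so each p-value reflects only the variation among these arrays, which may be technical.

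C2H2 zinc finger proteins form the largest class of human transcription factors. Each finger is a short fold held by a zinc ion that contacts a few bases of DNA, and arrays of fingers read longer sites. Many members carry a KRAB domain, which recruits TRIM28 and through it the histone methyltransferase SETDB1, HP1 proteins and deacetylases, and this complex silences retroelements and other targets. KRAB zinc finger genes arose by repeated local duplication, so that paralogs lie side by side, above all on chromosome 19.

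Array medians lay between 5.49 and 5.54 on the log2 scale, and pairs of arrays correlated between 0.922 and 0.994 across the 11804 genes tested. LPS+RSV replicate 1 differed most from the rest, its correlations averaging 0.946. Differences beyond 0.05 on the log2 scale that it moved by more than 1.5 times are also given without it. All 11 named epithelial markers passed the filter on all 15 arrays, among them EPCAM, VIL1, SI and APOB. Of these, the keratin gene KRT18 was called in LPS minus control (0.73, limma adjusted p 0.038) and in LPS+RSV minus LPS (-0.66, limma adjusted p 0.0474), comparisons that share the LPS arrays, and without LPS+RSV replicate 1 its adjusted p in the second was 0.0713. KRT20 differed by 1.16 and -1.02 in the same comparisons and was called in neither. Of 6 named fibroblast, endothelial and immune markers, CD163 and DCN were below the threshold on all 15 arrays. LUM was above it on 5, and CD68, PECAM1 and VWF were above it on all 15. LUM, a gene of fibroblasts, differed by 0.68 in LPS minus control and by -0.98 in LPS+RSV minus LPS. In the latter its groups did not overlap (limma adjusted p 0.0648). Its means were 5.43 on LPS, 4.76 on control and 4.46 on LPS+RSV arrays, and 5 arrays is the fewest the filter allows. The LPS group, where LUM was highest, may thus have carried it past the filter. Its values lay near the threshold, so these differences are only a description. The part of these markers in the results below was not tested.

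Probe sets differ in how strongly they respond, so their values do not rank genes by level and are compared here only between arrays. The 207 tested members had mean log2 values between 5.00 and 10.13, and the 34 members that failed the filter had means between 2.29 and 5.03. Among those 34 were ZNF91 and ZNF93, the repressors of SVA and L1 retroelements, and ZNF350, a partner of BRCA1. Of the 207, 188 lay above the threshold on all 15 arrays, and none passed through arrays of only 1 group. The spread within groups had a median SD of 0.17 over the members, against 0.16 over all genes. It was smallest for ZNF473, with an SD of 0.06, and largest for ZNF92, with an SD of 0.62.

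Exposure to LPS alone moved no zinc finger gene past the threshold. RNA came from whole cultures, so for every member fewer cells that express a gene and less RNA per cell cannot be told apart. Calls required an adjusted p under 0.05 by the Benjamini-Hochberg method in limma, a linear model with moderated variances, with the adjustment over all 11804 genes. In LPS minus control 0 of 207 members were called, where 3 genes in all were called, 0.0254% of those tested. The smallest adjusted p of a member in limma was 0.543. Fitted differences were above 0 for 82 members (39.6%) and below 0 for 125 (60.4%), against 52.7% above and 47.3% below over all genes. The members' median difference was -0.02, against 0.01 over all genes, on the log2 scale. At an unadjusted p under 0.05 there were 2 members higher and 6 lower, that is 0.966% and 2.9%, against 4.62% and 3.26% of all genes. The count of lower members was higher under other settings, with 13 (6.28%, against 5.34% of all genes) with array weights, 16 (7.73%, against 4.37%) with only the 2 groups in the fit and 17 (8.21%, against 7.54%) with a score of cell cycle genes on each array as a covariate. Without LPS replicates 1 and 2, 98 members (47.3%) were above 0 and 109 below, against 52.3% of all genes above 0. At that unadjusted p 2 members were then higher and 2 lower (0.966%), against 3.31% and 2.46% of all genes.

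ZNF165, a SCAN-domain protein known as a cancer-testis antigen, had the lowest p among members that were higher after LPS. Its log2 values were 7.19, 6.95, 6.87, 7.26 and 7.32 on the LPS arrays and 7.15, 7.06, 6.32, 6.50 and 6.43 on the control arrays. All LPS values lay above 3 of the control values and overlapped with the other two, replicates 1 and 2. The difference was 0.43 ± 0.16 (SE) on the log2 scale, with a limma adjusted p of 0.543. A second, dimmer probe set of ZNF165 with a mean of 5.42 differed by -0.01, so that the probe sets of the gene disagree. ZNF367 averaged 6.41 ± 0.16 on LPS arrays and 6.09 ± 0.25 on control arrays (SD, n = 5 each), a difference of 0.31. ZNF473, a protein of the U7 snRNP pathway that processes histone pre-mRNA, averaged 6.88 ± 0.04 on LPS arrays and 6.77 ± 0.06 on control arrays, a difference of 0.11. The SCAN-domain gene ZNF232 averaged 6.15 on LPS arrays and 5.97 on control arrays, a difference of 0.18.

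The members with the lowest p among those lower after LPS were ZNF397, ZNF234, ZNF14 and ZNF69. ZNF397, which has been found at centromeres, averaged 6.12 ± 0.05 on LPS arrays and 6.30 ± 0.14 on control arrays (SD, n = 5 each), a difference of -0.18. The KRAB genes ZNF234 and ZNF14 differed by -0.21 and -0.22. ZNF69 had log2 values of 6.17, 6.34, 6.28, 6.09 and 6.59 on the LPS arrays, against 6.92, 6.76, 6.88, 6.33 and 6.31 on the control arrays. Control replicates 4 and 5 of ZNF69 fell within the range of the LPS arrays, and its difference of -0.35 had a limma adjusted p of 0.591. The 5 LPS arrays lay wholly below the 5 control arrays for 2 members, ZNF182 and ZNF404, and wholly above them for 0, against 1.13% and 1.08% of all genes.

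**Figure D1:**
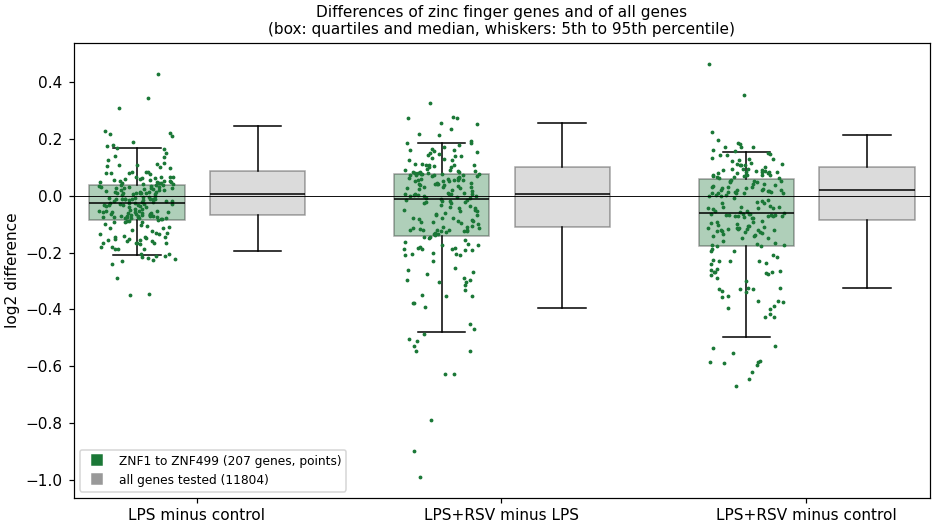
Fitted log2 differences of the 207 tested zinc finger genes (green points and boxes) beside all 11804 genes tested (grey boxes) in 3 comparisons on the x axis; boxes give quartiles and median, whiskers the 5th to 95th percentile. The members' medians of -0.02, -0.01 and -0.06 lie just below those of all genes, and the members' lower tail is longer than the upper in both comparisons with LPS+RSV.

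Resveratrol pretreatment before LPS also moved no zinc finger gene past the threshold. The differences were wider than after LPS alone, with a longer lower tail, among the members and among all genes alike: the 5th and 95th percentiles were -0.48 and 0.19 over the members and -0.40 and 0.26 over all genes. In LPS+RSV minus LPS 0 of 207 members were called, where 5 genes in all were called, 0.0424% of those tested. Fitted differences were above 0 for 98 members (47.3%) and below 0 for 109 (52.7%), against 52.1% and 47.9% of all genes. The median difference was -0.01 over the members and 0.01 over all genes. At an unadjusted p under 0.05 there were 9 members higher and 25 lower, that is 4.35% and 12.1%, against 8.08% and 10.5% of all genes, so that the share of lower members was close to the background. The 10 members that differed by more than 0.5 on the log2 scale were all lower in LPS+RSV: ZNF92, ZNF267, ZNF100, ZNF292, ZNF138, ZNF107, ZNF165, ZNF117, ZNF441 and ZNF493. They were 4.83% of the members, against 3.13% of all genes that were lower and 0.466% that were higher by as much. Without LPS+RSV replicate 1 the count was 4 (1.93%, against 1.75% of all genes), namely ZNF92, ZNF267, ZNF165 and ZNF100, and with the cell cycle score described next as a covariate it was 0 (against 0.856%). Without LPS+RSV replicate 1 the count at unadjusted p was 10 higher and 11 lower (5.31%), against 5.96% and 8.02% of all genes. In that fit 108 members (52.2%) were above 0 and 99 below, against 48% of all genes above 0. An array's cell cycle score was the mean log2 deviation of 35 cell cycle genes from their means over the 15 arrays. It ranged from -0.88 to 0.45 on the LPS+RSV arrays, from -0.03 to 1.01 on the LPS arrays and from -1.02 to 0.46 on the control arrays. In replicates 2 to 5 it was 0.45, -0.17, -0.39 and -0.88 on the LPS+RSV arrays, close to the 0.44, -0.18, -0.37 and -1.02 of the same-numbered control arrays, while replicate 1 was at -0.51 on the LPS+RSV array and at 0.46 on the control array. In LPS+RSV minus LPS the differences of these 35 genes were all below 0, with a median of -0.69. With this score as a covariate 9 members were higher and 3 lower (1.45%) at unadjusted p, against 5.81% and 5.96% of all genes. The part of cell cycle activity in these differences was not tested beyond that fit.

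Among members higher after resveratrol, ZNF426, a KRAB zinc finger gene of chromosome 19, stood first. Its log2 values were 6.81, 6.68, 6.72, 6.72 and 6.71 on the LPS+RSV arrays, against 6.44, 6.54, 6.42, 6.40 and 6.59 on the LPS arrays and 6.61, 6.52, 6.59, 6.60 and 6.46 on the control arrays. The LPS+RSV arrays lay above every LPS and control array, and the LPS and control arrays overlapped. The difference from LPS was 0.25 ± 0.06 (SE), a 1.19-fold ratio, with a limma adjusted p of 0.0962, the smallest of any member. It was 0.23 without LPS+RSV replicate 1 and 0.27 with the cell cycle score as a covariate. ZNF426 was the 1 member whose LPS+RSV arrays lay wholly above the LPS arrays, and ZNF143, ZNF26 and ZNF292 were the 3 that lay wholly below, against 1.41% and 1.39% of all genes.

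ZNF358 averaged 8.23 ± 0.20 on LPS+RSV arrays and 7.95 ± 0.09 on LPS arrays (SD, n = 5 each), a difference of 0.28. ZNF408, a gene mutated in inherited retinal disease, had log2 values of 6.43, 5.80, 6.10, 6.16 and 6.00 on the LPS+RSV arrays and 5.81, 6.08, 5.63, 5.66 and 5.68 on the LPS arrays. The highest was LPS+RSV replicate 1, and LPS replicates 1 and 2 lay within the LPS+RSV range. The difference of ZNF408 was 0.33 ± 0.11 (SE), with a limma adjusted p of 0.161. ZNF282, first described as a factor that binds the long terminal repeat of HTLV-1, averaged 8.24 ± 0.19 on LPS+RSV arrays and 7.98 ± 0.11 on LPS arrays, a difference of 0.26.

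Among members lower after resveratrol, ZNF165 had the lowest p. Its log2 values were 6.61, 6.89, 6.66, 6.42 and 6.29 on the LPS+RSV arrays, against 7.19, 6.95, 6.87, 7.26 and 7.32 on the LPS arrays. LPS+RSV replicate 2 lay just above the lowest LPS array and the other 4 lay below all LPS arrays. The difference was -0.55 ± 0.16 (SE) with a limma adjusted p of 0.14, it was -0.55 without LPS+RSV replicate 1, and the second probe set again differed by -0.01. This comparison shares the LPS arrays with LPS minus control, in which ZNF165 differed by 0.43, and LPS+RSV minus control differed by -0.12.

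ZNF441 averaged 5.58 ± 0.45 on LPS+RSV arrays and 6.09 ± 0.14 on LPS arrays (SD, n = 5 each), a difference of -0.51 that was -0.33 without LPS+RSV replicate 1. ZNF292, a large zinc finger protein mutated in a neurodevelopmental disorder, had log2 values of 6.92, 8.34, 8.42, 8.19 and 8.23 on the LPS+RSV arrays, against 8.75, 8.59, 8.49, 8.79 and 8.61 on the LPS arrays and 8.67, 8.74, 8.48, 8.54 and 8.43 on the control arrays. All LPS+RSV arrays lay below all LPS and control arrays, and replicate 1 lay more than 1 log2 unit below the other LPS+RSV arrays. The difference from LPS was -0.63 ± 0.21 (SE) with a limma adjusted p of 0.166. Without LPS+RSV replicate 1 it was -0.35 ± 0.08, so that the array moved the value by more than 1.5 times, and the groups still did not overlap.

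**Figure D2:**
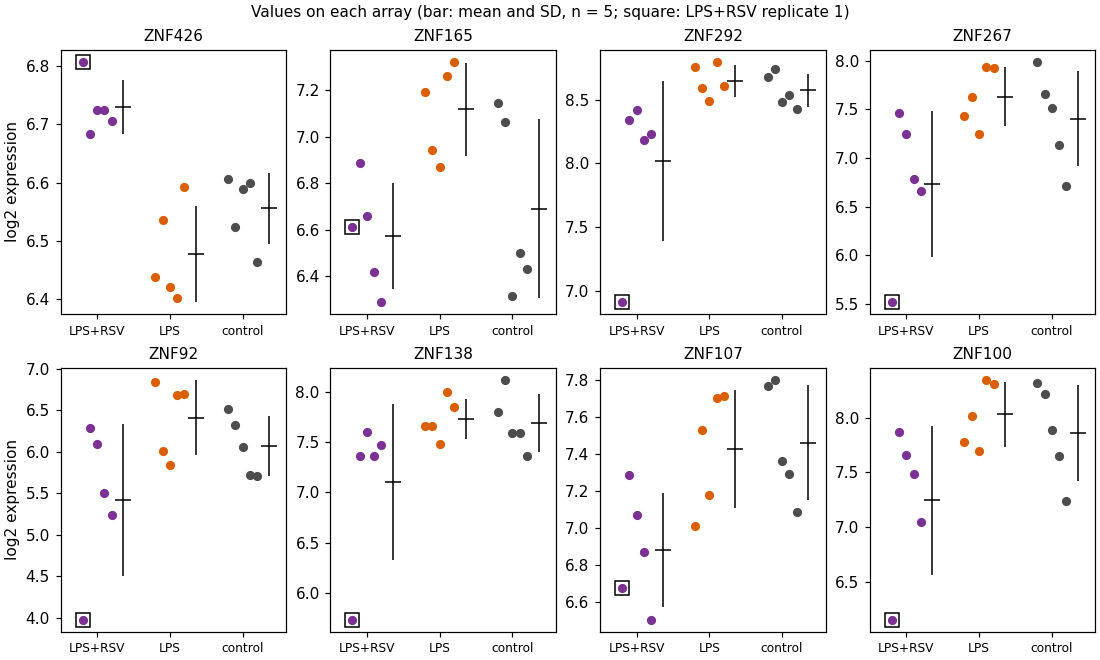
Log2 expression on each of the 15 arrays for 8 zinc finger genes, with LPS+RSV, LPS and control arrays on the x axis of each panel; bars give the mean and SD (n = 5) and the open square marks LPS+RSV replicate 1. ZNF426 lies higher on every LPS+RSV array than on any other array, and in ZNF292, ZNF267, ZNF92, ZNF138 and ZNF100 the square lies at the bottom of the panel.

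Of these 10 members, 4 lay in 1 run of neighbouring paralogs on chromosome 7 and 2 in 1 run on chromosome 19. A run was defined, after the values were seen, as 5 or more members whose start sites followed each other at gaps under 1 Mb. By this definition ZNF441 and ZNF165 also lay in runs, whose medians in LPS+RSV minus LPS were -0.05 and -0.04. Both medians changed sign without LPS+RSV replicate 1, to 0.01 and 0.0007. Other runs were mostly higher in that comparison. From ZNF425 to ZNF467 all 5 members were higher, and from ZNF358 to ZNF121 5 of 6 were, with a median of 0.12. On chromosome 7 the run ZNF107, ZNF138, ZNF273, ZNF117 and ZNF92 had a median difference of -0.55 in LPS+RSV minus LPS, with 4 of 5 members lower, and of -0.59 in LPS+RSV minus control. Without LPS+RSV replicate 1 the medians were -0.28 and -0.29, and with the cell cycle score as a covariate they were -0.24 and -0.53. At an unadjusted p under 0.05 3 of the 5 were lower in LPS+RSV minus LPS, against 10.5% of all genes. With that covariate 0 were, against 5.96%. ZNF92 had log2 values of 3.98, 6.28, 6.10, 5.50 and 5.24 on the LPS+RSV arrays, against 6.84, 6.01, 5.84, 6.68 and 6.69 on the LPS arrays. Replicate 1 lay more than 1 log2 unit below every other array, and the remaining LPS+RSV arrays overlapped with the LPS arrays. The difference of ZNF92 was -0.99 ± 0.35 (SE) with a limma adjusted p of 0.17, and -0.63 without that array.

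ZNF138 had log2 values of 5.73, 7.36, 7.60, 7.36 and 7.47 on the LPS+RSV arrays and 7.66, 7.66, 7.48, 7.99 and 7.85 on the LPS arrays. Its difference of -0.63 was -0.28 without LPS+RSV replicate 1. ZNF107 differed in that its low values were spread over the group. They were 6.68, 7.29, 7.07, 6.87 and 6.50 on the LPS+RSV arrays and 7.01, 7.53, 7.18, 7.71 and 7.71 on the LPS arrays, a difference of -0.55 ± 0.18 (SE) that was -0.50 without replicate 1. With the cell cycle score as a covariate the ZNF107 difference was -0.15. ZNF117 averaged 6.30 ± 0.73 on LPS+RSV arrays and 6.83 ± 0.27 on LPS arrays (SD, n = 5 each), with replicate 1 at 5.09, and its difference of -0.53 was -0.23 without that array. ZNF273, in the middle of the same run, averaged 5.60 on LPS+RSV arrays and 5.59 on LPS arrays, a difference of 0.01 with a 95% confidence interval of -0.17 to 0.19.

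On chromosome 19 the run from ZNF101 to ZNF254 held 12 tested members, whose median difference in LPS+RSV minus LPS was 0.02, with 5 lower, and -0.06 with 7 lower without LPS+RSV replicate 1. The first 5 were ZNF100, ZNF430, ZNF431, ZNF493 and ZNF254, whose differences ranged from -0.79 for ZNF100 to -0.30 for ZNF430, and without that array from -0.52 to -0.13. ZNF100 had log2 values of 6.15, 7.87, 7.66, 7.48 and 7.05 on the LPS+RSV arrays, against 7.78, 8.02, 7.70, 8.35 and 8.31 on the LPS arrays and 8.32, 8.22, 7.89, 7.65 and 7.24 on the control arrays. Replicate 1 was the lowest of the 15 arrays, LPS+RSV replicate 2 lay within the range of the LPS arrays, and the other LPS+RSV arrays lay below that range. The single chromosome 16 gene of this kind, ZNF267, a KRAB gene induced in liver fibrosis, had log2 values of 5.52, 7.46, 7.24, 6.79 and 6.66 on the LPS+RSV arrays and 7.43, 7.62, 7.24, 7.94 and 7.92 on the LPS arrays. Its difference of -0.90 was -0.59 without replicate 1. Probes for close paralogs can share signal, so the values of ZNF92, ZNF107, ZNF138, ZNF100, ZNF254, ZNF267, ZNF430 and ZNF431 are uncertain as separate measurements.

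RefSeq promoters of GRCh38.p14, from 250 bases before to 50 bases after the start site, were available for 208 of the 241 members. They are shown for 4 of the low paralogs because they share a stretch of sequence just before the start site, for ZNF273 because it is the neighbour that did not share the low values, and for ZNF426 as the highest-ranked member in the other direction. Each is given 5′ to 3′ on the strand of its gene. Capitals mark, in the first 4, a stretch called the block here, which is CTTCCGGG, then 3 or 4 bases of any kind, then GGCGGGG. They mark the motif CGCATGCG in ZNF273 and the motif TGACGTCA in ZNF426. The regions are chr7:65373605-65373904, chr7:64665883-64666182 and chr7:64794178-64794477 on the plus strand, chr19:21767530-21767829 on the minus strand, chr7:64877353-64877652 on the plus strand and chr19:9538596-9538895 on the minus strand.
ZNF92: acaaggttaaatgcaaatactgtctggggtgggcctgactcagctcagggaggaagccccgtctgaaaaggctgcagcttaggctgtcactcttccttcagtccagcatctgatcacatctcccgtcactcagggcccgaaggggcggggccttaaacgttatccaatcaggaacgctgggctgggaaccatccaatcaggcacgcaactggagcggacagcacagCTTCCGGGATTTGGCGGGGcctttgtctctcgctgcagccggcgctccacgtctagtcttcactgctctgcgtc
ZNF107: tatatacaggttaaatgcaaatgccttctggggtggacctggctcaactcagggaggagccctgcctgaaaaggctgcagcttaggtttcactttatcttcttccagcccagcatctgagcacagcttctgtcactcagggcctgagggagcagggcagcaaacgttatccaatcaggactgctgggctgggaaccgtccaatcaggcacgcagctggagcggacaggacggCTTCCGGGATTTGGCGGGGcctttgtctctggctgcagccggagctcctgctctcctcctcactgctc
ZNF138: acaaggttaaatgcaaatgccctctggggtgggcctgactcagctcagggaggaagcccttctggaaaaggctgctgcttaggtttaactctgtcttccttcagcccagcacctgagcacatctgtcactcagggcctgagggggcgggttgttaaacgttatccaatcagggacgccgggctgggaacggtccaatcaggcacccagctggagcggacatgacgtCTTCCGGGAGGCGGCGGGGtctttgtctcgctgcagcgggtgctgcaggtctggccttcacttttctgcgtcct
ZNF100: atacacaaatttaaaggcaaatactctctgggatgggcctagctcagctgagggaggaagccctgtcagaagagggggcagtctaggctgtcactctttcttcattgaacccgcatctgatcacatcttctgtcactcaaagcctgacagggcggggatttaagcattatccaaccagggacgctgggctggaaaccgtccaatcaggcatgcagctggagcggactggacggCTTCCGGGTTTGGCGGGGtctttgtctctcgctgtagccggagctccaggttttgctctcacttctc
ZNF273: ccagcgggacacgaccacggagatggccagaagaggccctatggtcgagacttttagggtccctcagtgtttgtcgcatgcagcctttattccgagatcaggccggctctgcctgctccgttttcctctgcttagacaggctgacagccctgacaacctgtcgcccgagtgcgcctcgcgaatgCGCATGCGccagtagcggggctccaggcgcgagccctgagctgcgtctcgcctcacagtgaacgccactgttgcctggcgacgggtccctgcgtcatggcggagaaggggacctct
ZNF426: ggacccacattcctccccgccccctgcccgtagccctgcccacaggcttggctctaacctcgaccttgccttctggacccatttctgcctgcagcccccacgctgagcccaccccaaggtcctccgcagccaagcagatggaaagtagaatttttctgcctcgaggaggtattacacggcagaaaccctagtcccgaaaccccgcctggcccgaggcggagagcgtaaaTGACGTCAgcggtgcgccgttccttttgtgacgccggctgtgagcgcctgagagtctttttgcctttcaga

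The block begins between 17 and 34 bases before the start site. Searched on both strands, it was found in 11 of 208 member promoters (5.29%) and in 21 of 27305 promoters in all (0.0769%), 15 of these of ZNF genes. It was read from promoters of members that had been chosen for their low values and was then searched for, and its carriers are paralogs that share more than this stretch, so the counts that follow are a description. The 11 members were ZNF43, ZNF85, ZNF100, ZNF254, ZNF430, ZNF431 and ZNF492 on chromosome 19, ZNF92, ZNF107 and ZNF138 on chromosome 7 and ZNF267 on chromosome 16. ZNF85 failed the filter. Of the other 10, 8 were lower and 2 higher in LPS+RSV minus LPS, with a median of -0.52, and 7 were lower at an unadjusted p under 0.05, where 47.9% and 10.5% of all genes were lower in these ways. In LPS+RSV minus control 9 were lower and 1 higher with a median of -0.56, and in LPS minus control 3 were lower and 7 higher with a median of 0.04. Without LPS+RSV replicate 1 the medians with LPS+RSV were -0.29 and -0.27, with 9 of 10 lower in each. With the cell cycle score as a covariate the medians were -0.23 in LPS+RSV minus LPS, where 0 were lower at that p, and -0.47 in LPS+RSV minus control, and in LPS minus control 9 were then lower and 1 higher with a median of -0.13. The 2 that were higher in LPS+RSV minus LPS were ZNF43, by 0.04, and ZNF492, by 0.07. Low values on LPS+RSV replicate 1 were not limited to genes with the block. Of the 13 members more than 1 log2 unit below the other LPS+RSV arrays there, 5 had the block, 7 had a promoter entry without it (ZNF117, ZNF292, ZNF302, ZNF141, ZNF493, ZNF235 and ZNF404) and 1, ZNF480, had no entry. The block genes ZNF107, ZNF492 and ZNF43 deviated by -0.26, -0.05 and 0.37.

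**Figure D3:**
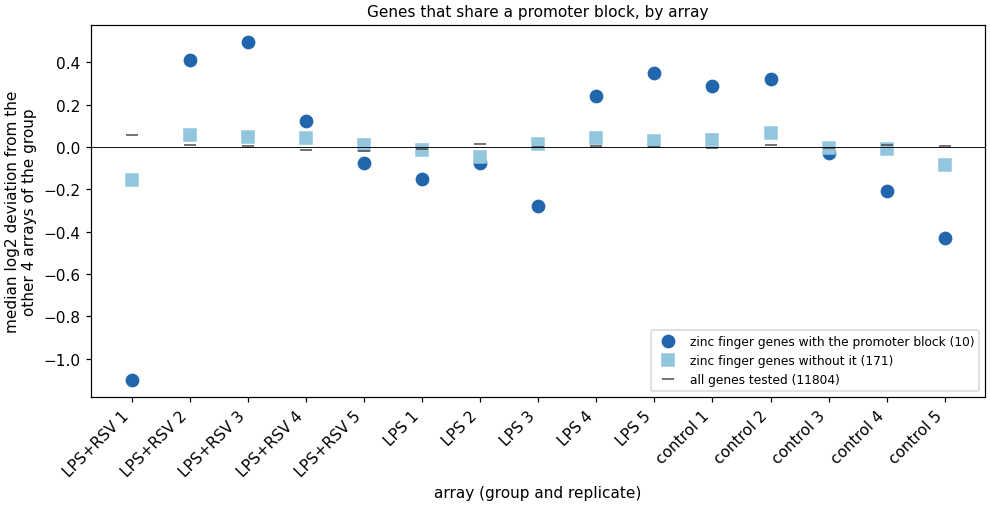
Median log2 deviation of each array from the other 4 arrays of its group, for the 10 tested zinc finger genes with the promoter block (dark circles), 171 members with a promoter but no block (light squares) and all 11804 genes tested (dashes). On LPS+RSV replicate 1 the medians are -1.10, -0.16 and 0.06 in that order, and the block was read from members chosen for their low values. On the other arrays the medians run from -0.43 to 0.50 with the block and from -0.09 to 0.06 without it. A median of 10 genes varies more than a median of 171. The part of set size and of cell cycle activity in the wider first range was not tested.

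Further promoter motifs were counted on both strands over the 208 members and all 27305 promoters of the same length. The pattern ACTACA, then 2 bases of any kind, then TCC, known from sites of the activator ZNF143, was present in 15.4% of member promoters and 2.09% of all promoters. CCGGAAG, the core of ETS factor sites, was present in 39.9% of member promoters and 10.7% of all promoters, and its reverse complement lies within the block. By the same count, members against all promoters, CCAAT was present in 48.6% against 35.7%, GGGCGG in 61.5% against 44.6%, TGACGTCA in 4.33% against 1.98%, CGCATGCG in 2.88% against 2.19%, and TATAAA in 2.4% against 12.0%. GGGCGG can overlap the edge of the block. The median number of CpG dinucleotides was 21 in member promoters, against 14 in all and 22 in those of protein-coding genes. In protein-coding genes alone, the ZNF143 pattern was present in 2.93%, CCGGAAG in 14.2% and TATAAA in 9.63% of promoters. In the same promoters CCAAT was present in 36.4%, GGGCGG in 58.5%, TGACGTCA in 2.59% and CGCATGCG in 2.88%. The share with CGCATGCG thus equalled that of the members, and the share with GGGCGG was close to it.

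LPS+RSV replicate 1 was the array on which most zinc finger genes were at their lowest. Of the 207 tested members, 78 (37.7%) had their lowest of 15 values there, against 20% of all genes and 26.2% of the ZNF genes numbered 500 and above. The members' mean deviation from their means over the 15 arrays was -0.22 on this array and between -0.05 and 0.09 on the other 14. Against the other 4 LPS+RSV arrays, 13 members (6.28%) lay more than 1 log2 unit lower, compared with 2.39% of all genes. The lowest were ZNF92 by -1.80, ZNF138 by -1.71, ZNF117 by -1.52, ZNF267 by -1.52, ZNF292 by -1.38 and ZNF100 by -1.36. The 7 others lay between -1.31 and -1.01. Members also lay above the group, with ZNF205 at 0.62, ZNF296 at 0.61 and ZNF486 at 0.58. The cell cycle score of this array was -0.51, and that of LPS+RSV replicate 5, whose member deviation was -0.05, was -0.88. The part of cell cycle activity, RNA quality and array handling in the low values of replicate 1 was not tested.

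**Figure D4:**
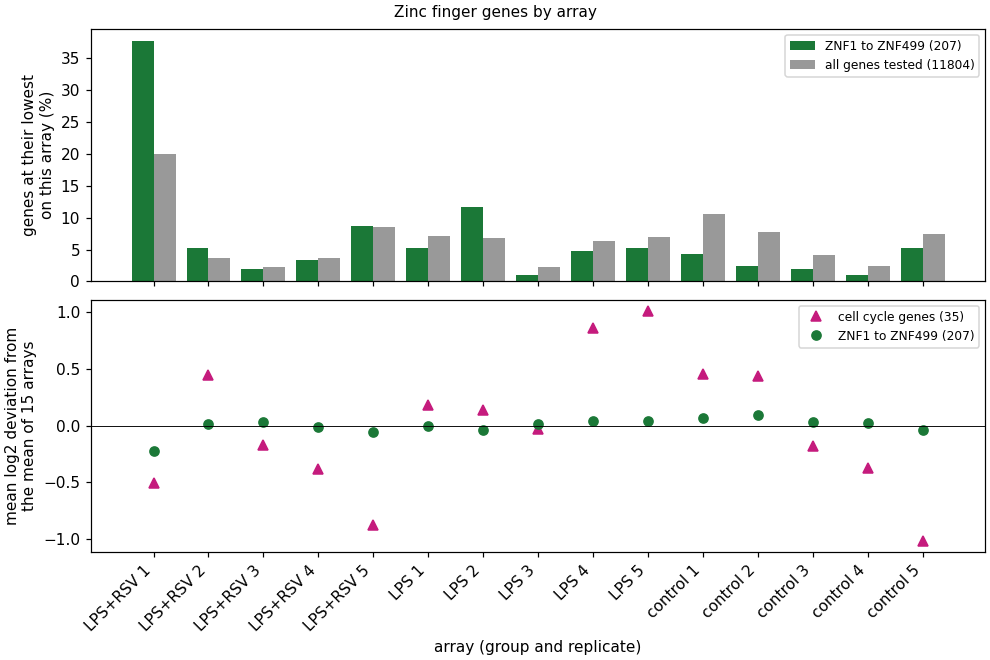
Upper panel, percentage of genes that have their lowest of 15 values on each array, for the 207 tested zinc finger genes (green) and all 11804 genes (grey); lower panel, mean log2 deviation from the mean of the 15 arrays for the same members (circles) and for 35 cell cycle genes (triangles). LPS+RSV replicate 1 holds the lowest value of 37.7% of members and 20% of all genes, and the members' deviations span -0.22 to 0.09, a narrower range than the -1.02 to 1.01 of the cell cycle scores.

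Set against untreated cells, resveratrol with LPS again called no member. In LPS+RSV minus control 0 of 207 members were called, where 0 genes in all were called, 0% of those tested by limma. At an unadjusted p under 0.05, limma counted 5 members higher (2.42%) and 23 lower (11.1%), against 483 genes higher (4.09%) and 756 lower (6.4%) in all. Fitted differences were above 0 for 85 members (41.1%) and below 0 for 122 (58.9%), against 55.8% and 44.2% of all genes. The median difference was -0.06 over the members and 0.02 over all genes. Without LPS+RSV replicate 1 these medians were -0.04 and 0.004. There were then 81 members (39.1%) above 0 and 126 below, against 51.5% of all genes above 0. At that unadjusted p 5 were then higher and 11 lower (5.31%), against 1.79% and 3.54% of all genes. The LPS+RSV arrays lay wholly above the control arrays for ZNF426 and wholly below for ZNF292 and ZNF480, against 0.627% and 1.09% of all genes.

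ZNF385B, a relative of a p53 target, had log2 values of 5.55, 5.11, 5.13, 5.42 and 5.50 on the LPS+RSV arrays, against 4.53, 4.67, 5.12, 5.12 and 4.96 on the control arrays. Control replicates 1 and 2 were the lowest of these, and the groups overlapped at 5.11 and 5.12. Members that failed the filter had means of up to 5.03, so the control values of ZNF385B lay near the filter's threshold. The difference was 0.46 ± 0.13 (SE) with a limma adjusted p of 0.464. ZNF408 differed by 0.35, ZNF473 by 0.18 and ZNF426 by 0.17 in the same comparison. In the other direction, ZNF112 averaged 6.75 ± 0.24 on LPS+RSV arrays and 7.16 ± 0.17 on control arrays (SD, n = 5 each), a difference of -0.42 that was -0.33 without LPS+RSV replicate 1. ZNF107 differed by -0.58, and by -0.53 without that array. The KRAB gene ZNF33A averaged 6.50 ± 0.44 on LPS+RSV arrays and 7.03 ± 0.10 on control arrays, a difference of -0.53. ZNF230 averaged 5.75 ± 0.29 on LPS+RSV arrays and 6.15 ± 0.18 on control arrays, a difference of -0.39.

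Of the 5 members with the brightest probe sets, 0 were called. ZNF207, which loads the checkpoint protein BUB3 on kinetochores, averaged 10.07 ± 0.15 on LPS+RSV arrays, 10.18 ± 0.08 on LPS arrays and 10.13 ± 0.09 on control arrays (SD, n = 5 each). ZNF12, ZNF189, ZNF322 and ZNF121 followed, and between LPS+RSV and LPS they differed by -0.20, 0.04, -0.04 and -0.35. The differences without LPS+RSV replicate 1 were -0.05 for ZNF207, -0.08 for ZNF12 and -0.21 for ZNF121. The 95% confidence interval for ZNF207 between LPS+RSV and LPS was -0.27 to 0.05, and that for ZNF121, which binds MYC, was -0.69 to -0.01.

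Of the 18 tested members with known roles, 0 were called in LPS+RSV minus LPS. At an unadjusted p under 0.05, 3 were lower, ZNF148, ZNF326 and ZNF217, against 10.5% of all genes. Of the silencing genes, ZNF10, the source of the KRAB domain most used in repressor fusions, averaged 5.74 ± 0.38 on LPS+RSV arrays, 5.94 ± 0.22 on LPS arrays and 6.04 ± 0.17 on control arrays (SD, n = 5 each), and its difference of -0.20 from LPS was -0.07 without LPS+RSV replicate 1. ZNF274, which brings SETDB1 to the 3′ ends of zinc finger genes, averaged 7.09 ± 0.24 on LPS+RSV arrays, 7.15 ± 0.08 on LPS arrays and 7.02 ± 0.08 on control arrays, and its LPS+RSV minus LPS difference had a 95% confidence interval of -0.27 to 0.14. Without that array the difference of ZNF274 was -0.15, against -0.07 with it.

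Among promoter and chromatin regulators, ZNF143, an activator of snRNA and many other genes, had log2 values of 7.54, 7.42, 7.54, 7.50 and 7.49 on the LPS+RSV arrays, against 7.72, 7.71, 7.56, 7.56 and 7.55 on the LPS arrays. The groups did not overlap, by a margin of under 0.01, and the difference was -0.12 ± 0.06 (SE) with a limma adjusted p of 0.298. ZNF148, which binds GC-rich promoter elements, had log2 values of 7.41, 8.41, 8.51, 8.35 and 8.29 on the LPS+RSV arrays and 8.60, 8.57, 8.47, 8.59 and 8.71 on the LPS arrays. Replicate 1 lay far below the rest, and the difference of -0.39 was -0.20 without it. ZNF281, a factor of pluripotency and epithelial-mesenchymal transition, differed by -0.04. ZNF335, a member of a nuclear receptor coactivator complex, differed by 0.14, and ZNF384, known from leukaemia fusions, by 0.05. ZNF410, which activates the remodeller gene CHD4, differed by -0.05 with a 95% confidence interval of -0.27 to 0.16, and CHD4 itself by -0.06. ZNF410 differed by -0.002 without LPS+RSV replicate 1.

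Of the genes of growth control, ZNF217, an amplified oncogene of breast cancer, averaged 7.82 ± 0.12 on LPS+RSV arrays, 8.01 ± 0.09 on LPS arrays and 7.92 ± 0.15 on control arrays (SD, n = 5 each), a difference from LPS of -0.18. The SCAN-family gene ZNF24 differed by -0.17, or -0.09 without LPS+RSV replicate 1, and the imprinted gene ZNF331 by 0.09. ZNF326, part of the DBIRD complex that links transcript elongation with splicing, averaged 8.64 ± 0.37 on LPS+RSV arrays and 8.94 ± 0.15 on LPS arrays, a difference of -0.30 that was -0.15 without that array. ZNF346, which binds double-stranded RNA, differed by -0.01 with a 95% confidence interval of -0.17 to 0.14.

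Of the genes of metabolism, ZNF202, a repressor of lipid transport genes, averaged 6.63 ± 0.05 on LPS+RSV arrays, 6.62 ± 0.14 on LPS arrays and 6.58 ± 0.10 on control arrays (SD, n = 5 each). Its LPS+RSV minus LPS difference of 0.01 had a 95% confidence interval of -0.14 to 0.16. ZNF224, a repressor of aldolase A, differed by 0.08 at its brighter probe set and by -0.16 at its dimmer one. The brighter probe set differed by 0.11 without LPS+RSV replicate 1. The hypoxia-induced ZNF395 differed by 0.08, or 0.04 without that array, and ZNF423, a regulator of preadipocyte commitment, by -0.09.

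**Figure D5:**
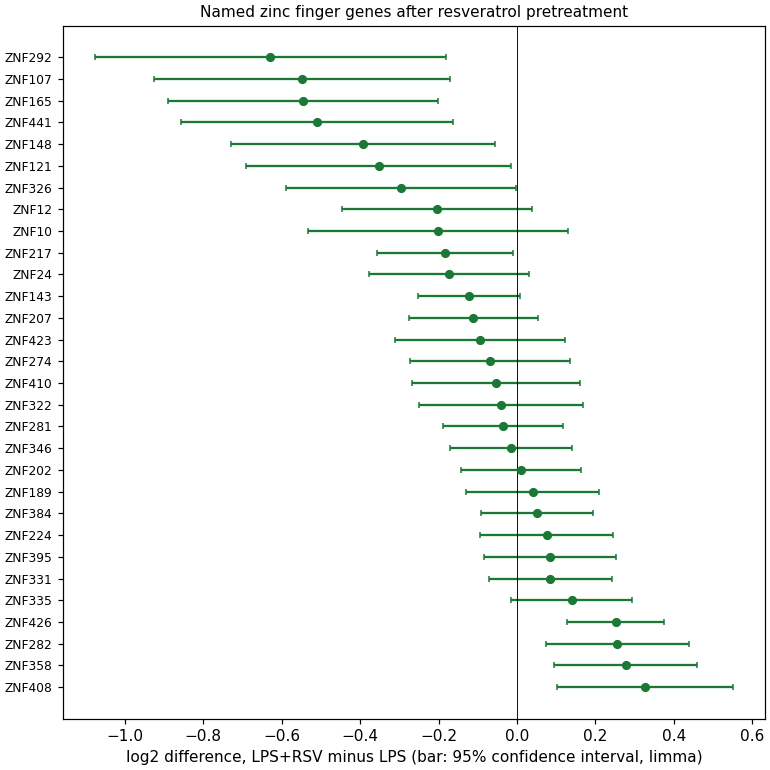
Fitted log2 difference between LPS+RSV and LPS (x axis, point) with its 95% confidence interval (bar), with genes ordered by difference on the y axis. The genes shown are those of lowest p in this comparison, those of brightest probe set and those of the role lists. Among these, ZNF292 lies lowest at -0.63 and has the widest interval, and ZNF408 lies highest at 0.33. ZNF92, ZNF267 and ZNF100 are lower, at -0.99, -0.90 and -0.79, and are not shown.

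A list of corepressors on which KRAB zinc finger proteins act, other heterochromatin genes and relatives of TRIM28 was examined on the same arrays. It held 31 symbols, with TASOR also under its older symbol FAM208A. Of these 25 were tested, and 0 were called in any comparison. SETDB1 was listed but was not among the tested genes. In LPS+RSV minus LPS 21 were below 0 and 4 above, with a median of -0.17, and 6 were lower at an unadjusted p under 0.05. These shares are 84% below 0 and 24% lower at that p, against 47.9% and 10.5% of all genes. The median without LPS+RSV replicate 1 was -0.08, with 21 again below 0 and 4 lower at that p, against 8.02% of all genes. In LPS minus control 16 were above 0 and 9 below with a median of 0.04, and in LPS+RSV minus control 6 were above and 19 below with a median of -0.08. TRIM28 itself differed by 0.15 between LPS+RSV and LPS, against -0.49 for its relative TRIM33, -0.28 for TRIM24 and -0.51 for ATF7IP, the partner of SETDB1. The HP1 genes CBX1, CBX3 and CBX5 differed by -0.11, -0.18 and -0.43. When LPS+RSV replicate 1 was left out, the differences were 0.08 for TRIM28, -0.33 for TRIM33, -0.05 for CBX1 and -0.06 for CBX3. With the cell cycle score as a covariate 16 of the 25 were above 0 and 9 below, with a median of 0.04, against 50.1% of all genes above 0. At an unadjusted p under 0.05, 6 were higher and 0 lower, against 5.81% and 5.96% of all genes. In LPS minus control 4 were then above 0 and 21 below, with a median of -0.11.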

How the data were processed

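Expression was measured on 15 whole-transcript Affymetrix arrays, 5 per group, from 300 ng of total RNA per sample converted to biotin-labelled sense cDNA, per the labels' protocols. The deposited values were log2 expression per probe set made with RMA, per the submitters' processing notes, with version and genome build not given in the sources used here. RMA includes quantile normalization, so a shift common to most genes would not be seen. Of 53617 probe sets, 16098 had 1 gene symbol, 0 had several and 37519 were unnamed in the platform annotation. Values were used as deposited, with a pseudocount of 0.

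The 3 group means over 15 arrays were fitted and compared in R 4.3.3 by limma 3.58.1, using lmFit followed by eBayes. Adjusted p-values are Benjamini-Hochberg values over 11804 genes, and unadjusted p-values come from the same fit. The fit was tested on simulated data. The number of arrays limits the precision. Replicate numbers were not taken as pairs because in no comparison did all same-numbered deviations correlate above 0.1: the correlations ran from -0.54 to 0.12 in LPS and control and from -0.37 to 0.10 in LPS+RSV and LPS, and in LPS+RSV and control they were -0.44, 0.71, 0.06, 0.10 and 0.43 for replicates 1 to 5. The replicate block was run as an alternative over all 3 groups at once. A pairing of LPS+RSV with control alone was not tested.

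Members and gene lists were chosen with earlier results of these data known. Named genes were the 4 of lowest p in each direction of each comparison, the 5 of brightest probe set and the members of 5 role lists. Other members were named after their values were seen: those beyond 0.5 in a comparison, those of the runs and the promoter block, those whose groups did not overlap and those extreme on LPS+RSV replicate 1. Alternatives varied the filter, probe set choice, normalization, moderation, array weights, samples in the fit, replicate block, cell cycle covariate and arrays left out. Counts for runs, gene lists and promoter sets without LPS+RSV replicate 1, with the covariate or without LPS replicates 1 and 2 were added after the data were seen. Proteins were not used here.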

Additional observations from a re-analysis of the deposited data

Results flagged for a closer look

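In 129 groups of 5 arrays, 3 for each of 41 named members and of 2 gene list scores, 6 held an array whose gap to its nearest neighbour was above 0.71 of the group's range. Chance alone sets apart about 1 group in 20 by this measure. On LPS+RSV replicate 1, ZNF292 was at 6.92, against 8.18 to 8.42 on the other LPS+RSV arrays, and ZNF148 was at 7.41, against 8.29 to 8.51. On LPS+RSV replicate 5, ZNF331 was at 7.78, against 7.49 to 7.55. Among control arrays, ZNF367 was at 5.67 on replicate 5, against 6.1 to 6.27, ZNF473 was at 6.88 on replicate 4, against 6.72 to 6.75, and ZNF384 was at 8.52 on replicate 1, against 8.7 to 8.76. All values are on the log2 scale.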

How the results depend on the processing

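The count of called members was 0 in all 3 comparisons under all alternatives run. Counts of members at an unadjusted p under 0.05 moved by more than 1.5 times as follows. For members higher in LPS minus control (2), the count was 1 with the mean of all rows of a symbol, 6 with array weights, 4 with only the 2 groups compared, and 1 to 3 with 1 array left out. For members lower in LPS minus control (6), it was 10 with arrays centred on their median, 13 with array weights, 16 with only the 2 groups compared, 17 with the cell cycle score as a covariate, 2 without LPS replicates 1 and 2, and 2 to 7 with 1 array left out. For members higher in LPS+RSV minus LPS (9), it was 5 without LPS replicates 1 and 2 and 6 to 14 with 1 array left out, the highest without LPS+RSV replicate 2. For members lower in LPS+RSV minus LPS (25), it was 12 with array weights, 3 with the covariate and 11 to 30 with 1 array left out, with 15 without LPS replicate 4, 13 without LPS replicate 5 and 11 without LPS+RSV replicate 1. For members higher in LPS+RSV minus control (5), it was 3 with a filter at the 60th percentile and 4 to 8 with 1 array left out. For members lower in LPS+RSV minus control (23), it was 14 with array weights and 11 to 38 with 1 array left out, the lowest without LPS+RSV replicate 1 or control replicate 1 and the highest without LPS+RSV replicate 2. With the replicate number as a block the counts lower at unadjusted p were 8, 20 and 21 and those higher 3, 7 and 5, and 0 members were called. The causes of these shifts were not tested.

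Some uncalled differences in LPS+RSV minus LPS changed sign. With the cell cycle covariate these were ZNF189 (-0.022), ZNF322 (0.13), ZNF10 (0.0068), ZNF281 (0.051), ZNF346 (0.071) and ZNF395 (-0.015). Without LPS replicates 1 and 2 they were ZNF189 (-0.018), ZNF384 (-0.013), ZNF410 (0.038) and ZNF202 (-0.089). With the mean of all rows they were ZNF322 (0.038) and ZNF224 (-0.042), with repeated quantile normalization ZNF346 (0.0081), and with array weights ZNF202 (-0.018). With 1 array left out the ranges that crossed 0 were -0.11 to 0.0075 for ZNF322, -0.15 to 0.0083 for ZNF274, -0.11 to 0.036 for ZNF410, -0.057 to 0.021 for ZNF346 and -0.030 to 0.042 for ZNF202.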
